A study of Glycine max with 24 samples.

Results

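The comparison described here is the early response of leaves of the soybean (Glycine max) line LD to a mixture of flg22 and chitin, measured in 6 of the 24 RNA-seq libraries of the series. The 3 LD MAMP libraries came from leaf slices held for 30 min in a MAMP solution of 5 ml, which contained crab shell chitin (50 µg) and the peptide flg22 (1 µM). The 3 LD mock libraries came from slices held for the same time in water with the DMSO that had carried the peptide. LD is 1 of the 2 parents from which a set of recombinant inbred lines was bred. The other 18 libraries come from the other parent, LDX, and from R-11268 and R-11272, which are inbred lines of that set, each with 3 MAMP and 3 mock libraries. All groups share plants of 3 weeks grown with a 16 h photoperiod, whose trifoliolate leaves were detached, infiltrated with water under vacuum, cut into slices and floated on water overnight in the dark. Leaves of 5 plants were pooled per genotype and the slices split between a MAMP and a mock dish, so that a library stands for a pool and not for a plant. The 2 elicitors were given together and only 1 time was sampled, so an effect of flg22 cannot be told apart from one of chitin.

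Flg22 is a peptide from a conserved stretch of bacterial flagellin, and chitin is a structural polymer in the walls of fungi. Both belong to the microbe-associated molecular patterns (MAMPs), which receptor kinases at the plant cell surface detect. In Arabidopsis the receptor kinase FLS2 binds flg22, and LysM-domain receptor kinases such as CERK1 take part in the perception of chitin. Perception is followed within minutes by calcium influx, an oxidative burst and the activation of MAP kinases, and then by a wave of transcription, which is known as pattern-triggered immunity.

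The deposited table gives estimated counts for 41743 transcripts of 41550 loci. The LD MAMP libraries summed to 15211744, 14302175 and 16004607, and the LD mock libraries to 17541363, 9780810 and 16133660. Of the identifiers, 0 occurred in the reference table of gene names, so transcripts are given by identifier only, no function is stated for any of them, and leaf marker genes could not be looked up. The MAMP and mock values of a pool are tied to each other in this table: in LD their ratio, once scaled by its median, was the same in replicates 1, 2 and 3 for 100% of 40100 transcripts above 0.1, with a tolerance of 0.001 in the SD. The table therefore holds no separate replicate error of the MAMP effect. The p-values below measure the spread between pools as the table holds it, with a lower bound set by counting error. For scarce transcripts that spread can be smaller than counting error, and the bound can then set the p-value. The scarce transcript Glyma0048s00310.1, for example, had an LD log2 fold change of −0.531 (SE 0.15) but an unadjusted edgeR p of 0.139. The labels number the replicates but do not say whether each came from its own plants, so part of that spread may be technical. In whole leaf slices, fewer cells of a type and less RNA per cell cannot be told apart.

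The called changes in LD were almost wholly upward. Of 33214 transcripts tested, 1454 rose (4.38%) and 97 fell (0.292%) at a Benjamini-Hochberg adjusted p under 0.05 in edgeR's quasi-likelihood test, so that rises were 93.7% of the 1551 calls (4.67%). At an unadjusted p under 0.05, 2667 were higher and 820 lower. The quartiles of the log2 fold change were 1.27, 1.97 and 3.04 among the risen transcripts and −1.18, −0.948 and −0.768 among the fallen ones, against −0.24, −0.019 and 0.2 among all those tested. The median risen transcript had 26.9 CPM (its count as a share of the scaled library size) in LD MAMP libraries and 5.59 in LD mock libraries. The median fallen transcript had 1.29 CPM in LD MAMP libraries and 2.67 in LD mock libraries. A CPM value is not corrected for transcript length.

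The number of falls rested on every LD library. Without 1 of the MAMP libraries 1, 2 or 3 there were 43, 54 or 53 falls, and without 1 of the mock libraries 1, 2 or 3 there were 53, 60 or 47, while rises numbered 1110 to 1303. Scaled by library totals alone, 1430 transcripts were higher and 290 lower, which put rises at 83.1% of the calls. Falls numbered 293 in limma-voom and 105 in DESeq2, with rises at 85.5% and 93.7% of the calls. There were 154 falls without a filter and 147 in the 6 LD libraries alone. Without both libraries of LD pool 2 there were 20, and at a mean of 100 counts or more there were 19. With the replicate number as a block, 7047 were higher and 7597 lower, but in that fit the error of the MAMP effect is close to 0 by the construction of the table.

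The size of the response was lopsided too. Among the transcripts that rose, 1240 were 2-fold or more higher in LD MAMP libraries, 713 were 4-fold or more, 374 were 8-fold or more, 167 were 16-fold or more, 83 were 32-fold or more and 33 were 64-fold or more. Among the transcripts that fell, 43 were 2-fold or more lower, 3 were 4-fold or more, 1 was 8-fold or more and 0 were 16-fold or more. Fitted falls of 8-fold or more without a call existed as well, since 22 tested transcripts had one and 1 was called. Among all tested transcripts, called or not, 2027 were 2-fold or more higher and 688 were 2-fold or more lower. At 4-fold or more they were 939 and 68, so the split was less lopsided than among the calls. The MAMP libraries all lay above the mock libraries for 1452 of the 1454 risen transcripts, against 4923 of all tested transcripts (14.8%). They all lay below for 94 of the 97 fallen ones, against 2941 of all tested (8.85%). Because the 2 libraries of a pool are tied, separated groups are no independent support. At the threshold itself, the last transcript called higher had an adjusted p of 0.0497 and a log2 fold change of 0.54, and the first one missed had 0.0503 and 2.38.

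**Figure D1:**
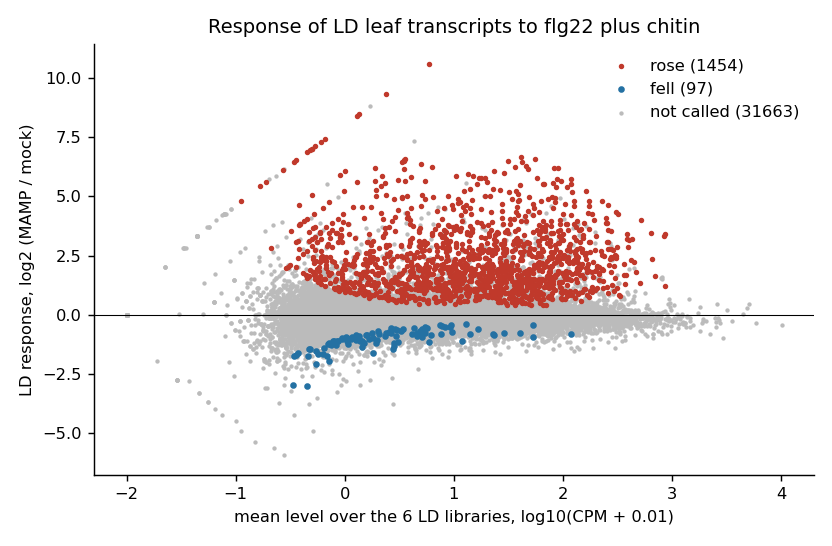
Log2 fold change in LD (MAMP over mock, y axis) against the mean level over the 6 LD libraries (x axis, log10 of CPM plus 0.01) for 33214 transcripts. Points of the 1454 transcripts that rose reach far above 0 at all levels, while the 97 that fell sit below it, mostly at low levels and close to it.

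A sizeable part of the LD transcriptome was taken up by the risen transcripts after treatment. Together they held 9.53%, 11.1% and 11.4% of all counts in the LD MAMP libraries and 2.53%, 2.67% and 2.82% in the LD mock libraries. No MAMP library came near the mock range. The fallen transcripts held 0.0449%, 0.042% and 0.0458% of the LD MAMP libraries and 0.0815%, 0.0756% and 0.0845% of the LD mock libraries. Summed over the risen transcripts, the mean level was 110320 CPM with MAMP and 26077 CPM with mock, a gain of 84243 CPM. The 10 transcripts with the largest gain gave 10.8% of it, the top 50 gave 31.0% and the top 100 gave 45.5%. These sums use the same libraries that chose the transcripts and are a description.

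Called rises were most frequent among abundant transcripts and called falls among scarce ones. Above a mean of 100 CPM over the 6 LD libraries, 189 of 1798 transcripts rose (10.5%) and 1 fell (0.0556%). Between 10 and 100 CPM, 688 of 13794 rose (4.99%) and 10 fell (0.0725%). Between 1 and 10 CPM, 435 of 13067 rose (3.33%) and 61 fell (0.467%). Under 1 CPM, 142 of 4555 rose (3.12%) and 25 fell (0.549%). The median log2 rise was 2.34 in the top class and 2.44 in the lowest one, with 1.82 and 1.84 between them. The interquartile range of all fold changes was widest under 1 CPM, at −0.475 to 0.358 on the log2 scale. It was −0.268 to 0.202 between 1 and 10 CPM, −0.185 to 0.176 between 10 and 100 CPM and −0.232 to 0.245 above 100 CPM. A transcript that rose strongly has a higher mean for that reason, so level and response are not independent here. How readily a change is called also differs with level, and its part in these shares was not tested.

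The largest rises with a solid MAMP count started from mock levels at or near 0. Glyma10g03970.1 on chromosome 10 had 5.86, 15.8 and 13.8 CPM in the LD MAMP libraries and 0 CPM in each LD mock library. The 3 mock libraries together held 0 of its counts and the MAMP libraries 516, so it was at least 175-fold higher, taking the floor as 3 counts over the mock group. Its fitted log2 fold change of 10.6 (SE 2.6, edgeR adjusted p = 0.0246) depends on how 0 counts are handled. The call ended without any 1 of the LD mock libraries or without MAMP library 2, with adjusted p-values of 0.0514 to 0.109 in edgeR, and without both libraries of LD pool 2 (0.143). Its MAMP levels were uneven in other lines, at 1.68, 2.64 and 50.8 CPM in LDX and 42.1, 2.56 and 1.87 CPM in R-11272. Without LD pool 2, LDX pool 3 and R-11272 pool 1 the edgeR adjusted p was 1.1e-05. It was also called higher in LDX (log2 9.36, edgeR adjusted p = 0.0216), but not in R-11268 (4.12) or R-11272 (2.75).

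Glyma09g36380.1 on chromosome 9 varied less between pools, with 4.46, 4.39 and 5.55 CPM in LD MAMP libraries and 0 in every LD mock library after rounding. Its totals were 214.8 counts with MAMP and 0.999 with mock, a ratio of 219 with an exact 95% counting interval of 38.9 to 8699. The edgeR log2 fold change was 9.31 (SE 0.58, adjusted p = 8.95e-09) with the mock values rounded to 0, and 7.35 with unrounded values (edgeR) and 7.11 in limma-voom, with the call kept in both. For this transcript the SE does not reflect the width of the counting interval. Its MAMP libraries averaged 4.8 ± 0.649 CPM in LD, against 2.4 ± 0.928 in LDX, 2.24 ± 0.365 in R-11272 and 2.62 ± 0.971 in R-11268 (SD, n = 3 each). The difference of its LD response from the mean of the other lines, which rests on the same rounded values, was 4.9 on the log2 scale (SE 0.84) and did not pass the test (edgeR adjusted p = 0.198).

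Mock totals this low were found for 201 tested transcripts, which had under 3 counts in the LD mock libraries together. Of these, 45 were called higher (22.4%), against 4.38% of all tested, but choosing by a low mock total favours rises, so nothing is read from that share. LD MAMP totals of the 45 ran from 8 to 516 counts, with a median of 43.8. At such mock totals a transcript that was absent and one that was scarce cannot be told apart at this depth.

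The 2 risen transcripts with the highest MAMP levels were 10.7-fold and 10.4-fold higher in LD MAMP libraries. Glyma02g46610.1 on chromosome 2 had 1211, 1631 and 1859.9 CPM in LD MAMP libraries and 114, 157 and 176 CPM in LD mock libraries. It averaged 1567 ± 329 CPM with MAMP and 149 ± 32 CPM with mock (SD, n = 3 each), and the ratio of its totals was 10.7 with an interval of 10.5 to 11. The edgeR log2 fold change was 3.4 (SE 0.32, adjusted p = 5.63e-07). Glyma05g36970.1 on chromosome 5 had 1173, 1802 and 1659 CPM in LD MAMP libraries and 115, 181 and 164 CPM in LD mock libraries, with a log2 fold change of 3.34 (SE 0.34, edgeR adjusted p = 1.48e-06). For both, the lowest MAMP library lay more than 6 times above the highest mock library. Both were also called higher in LDX, R-11268 and R-11272, with log2 fold changes of 2.43 to 2.94.

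**Figure D2:**
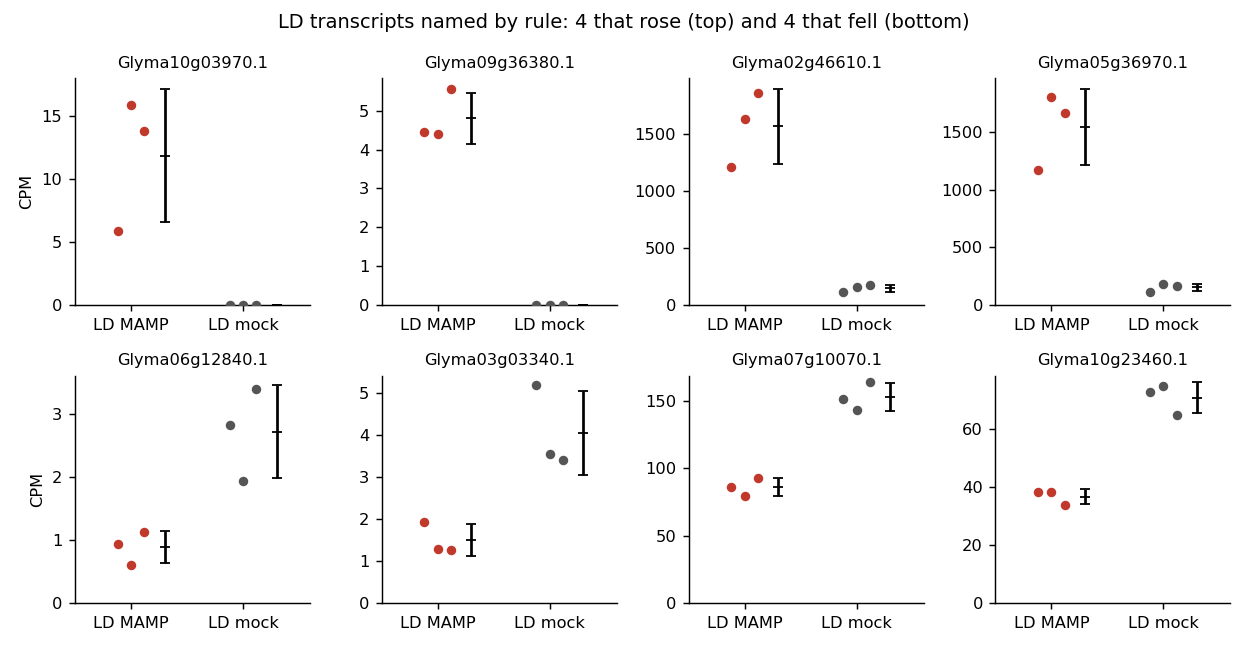
CPM in each LD library (points, MAMP left and mock right) with the mean and SD (bars) for 4 transcripts that rose (top row) and 4 that fell (bottom row), each panel on its own scale starting at 0. Glyma10g03970.1 and Glyma09g36380.1 sit at 0 in all mock libraries, and in every panel the 3 MAMP points lie on one side of the 3 mock points.

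The 3 called falls of 4-fold or more were all under 1 CPM in LD mock libraries. Among falls with 100 or more mock counts in all and MAMP libraries all below the mock libraries, the largest was that of Glyma06g12840.1 on chromosome 6. It had 0.932, 0.606 and 1.12 CPM in LD MAMP libraries and 2.82, 1.93 and 3.4 CPM in LD mock libraries. Its totals of 39.9 counts with MAMP and 128.8 with mock put it 3.16-fold lower, with an interval of 2.2 to 4.63. Its edgeR log2 fold change was −1.61 (SE 0.42, adjusted p = 0.0296), and the call ended without any 1 of 5 LD libraries, with adjusted p-values of 0.0518 to 0.154. It stayed called only without mock library 2.

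Glyma03g03340.1 on chromosome 3 went opposite ways in LD and in R-11272. It had 1.93, 1.29 and 1.25 CPM in LD MAMP libraries and 5.2, 3.54 and 3.4 CPM in LD mock libraries, a log2 fold change of −1.44 (SE 0.29, edgeR adjusted p = 0.00313). In R-11272 it had 3.74, 6.04 and 5.4 CPM with MAMP and 1.46, 2.37 and 2.11 CPM with mock, and its log2 fold change was 1.35 (edgeR adjusted p = 0.00538). In LDX and R-11268 the log2 fold changes were −0.881 and −0.448, and neither was called. The LD response minus the mean of the other lines was −1.45 (SE 0.33) and did not pass the test (edgeR adjusted p = 0.285). A direct test of LD against R-11272 was not run.

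The 2 most abundant fallen transcripts had similar levels in the pools. Glyma07g10070.1 on chromosome 7 had 86.2, 79.6 and 92.9 CPM in LD MAMP libraries and 151, 143 and 164 CPM in LD mock libraries, 1.78-fold lower with an interval of 1.71 to 1.85. Its edgeR log2 fold change was −0.826 (SE 0.17, adjusted p = 0.00351), and the call ended when libraries were scaled by their totals alone (adjusted p = 0.0737). Glyma10g23460.1 on chromosome 10 had 38.1, 38.3 and 33.6 CPM in LD MAMP libraries and 72.7, 74.8 and 64.7 CPM in LD mock libraries. It is the fall nearest to the threshold, with a log2 fold change of −0.948 (SE 0.27) and an edgeR adjusted p of 0.0479, and leaving out any 1 LD library ended its call (0.0885 to 0.187).

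Whether the LD response was shared was asked next, by reading the transcripts called in LD in the other lines, whose libraries the choice did not use except through the common estimate of spread. Of the 1454 transcripts that rose in LD, 1033 were called higher in LDX (71.0%), 1026 in R-11272 (70.6%) and 977 in R-11268 (67.2%). Over all tested transcripts the calls higher were 1151 in LDX (3.47%), 1294 in R-11272 (3.9%) and 1048 in R-11268 (3.16%). The fitted response was positive in all 3 other lines for 1406 of the 1454, against 6555 of all 33214 tested. The median log2 response of the 1454 was 1.97 in LD, which chose them. It was 1.51 in LDX, 1.65 in R-11272 and 1.53 in R-11268.

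Stronger LD responses were called in the other lines more often, up to a point. Of the 214 transcripts that rose by under 1 on the log2 scale in LD, 35.5% were called higher in LDX, 45.8% in R-11272 and 32.7% in R-11268. Of the 339 that rose by 2 to 3, the shares were 81.7% in LDX, 78.5% in R-11272 and 79.4% in R-11268. Of the 167 that rose by 4 or more, 94.0% were called in LDX, 74.9% in R-11272 and 79.0% in R-11268. In this top class the median log2 response was 5 in LD, 4.64 in LDX, 3.62 in R-11272 and 3.43 in R-11268, so the parent LDX lay nearer to LD than both inbred lines did. The differences between these lines were not tested for the class.

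A group of 224 transcripts rose in LD and was called higher in no other line. Their median log2 response was 1.17 in LD, 0.551 in LDX, 0.569 in R-11272 and 0.535 in R-11268. Of the 224, 187 were positive in all 3 other lines, against 6555 of all 33214 tested. Only 2 of the 224 passed the test of LD against the mean of the other lines, so for the rest no difference between lines was shown. Some of the falls were called in the other lines too. Of 97 falls in LD, 15 were called lower in LDX (15.5%, against 0.31% of all tested). Calls lower numbered 14 in R-11272 (14.4%, against 0.406%) and 9 in R-11268 (9.28%, against 0.232%). In R-11272, 4 of the 97 were called higher (4.12%), near the 3.9% of all tested. The median log2 response of the 97 was −0.948 in LD, −0.451 in LDX, −0.277 in R-11272 and −0.218 in R-11268. Of the 97, 54 were negative in all 3 other lines, against 6900 of all 33214 tested.

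The reverse reading avoids choosing transcripts by their LD values. Calls higher in all of the 3 other lines numbered 817, and 804 of these transcripts were called higher in LD. Their median log2 response in LD was 2.41, next to 2.19 in R-11272, 2 in R-11268 and 1.99 in LDX. LD had the largest of the 4 responses for 494 of them (60.5%), R-11272 for 215 (26.3%), LDX for 77 (9.42%) and R-11268 for 31 (3.79%). LD had the smallest response for 57. The LD response lay above the mean of the other lines for 682 (83.5%), by a median of 0.361 on the log2 scale, against 52.7% and a median of 0.018 over all tested transcripts. Of the 817, 4 passed the test of that difference one by one.

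**Figure D3:**
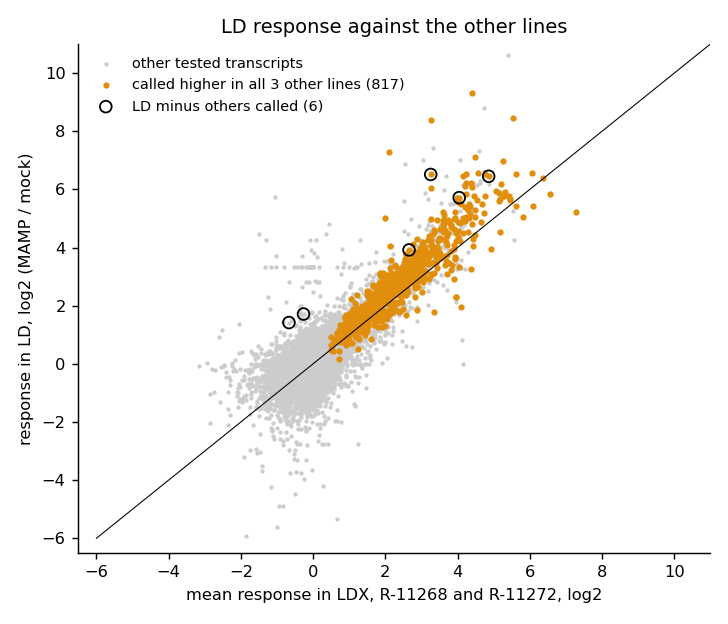
Log2 response in LD (y axis) against the mean log2 response of LDX, R-11268 and R-11272 (x axis), with the line of equality. Most of the 817 transcripts called higher in all 3 other lines (orange) lie above that line, and the 6 transcripts whose LD response passed the test of a difference are circled.

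The larger LD response of this set went with higher levels in MAMP libraries more than with lower levels in mock libraries. In the MAMP libraries the level in LD lay above the mean of the other lines for 637 of the 817 (78.0%), by a median of 0.342 in log2 of mean CPM plus 0.1, while over all tested transcripts the share was 48.9% and the median −0.0121. In the mock libraries LD lay above for 359 (43.9%), with a median of −0.0634, against 47.2% and −0.0241 over all tested. LD had the highest MAMP level of the 4 lines for 509, LDX for 147, R-11272 for 131 and R-11268 for 30. The highest mock level was in LD for 172, in LDX for 324, in R-11268 for 206 and in R-11272 for 115. Transcripts of the set share libraries and pools, so these counts have no test. The share with the largest response in LD was 46.3% without LDX mock library 3 and 51.0% without R-11272 mock library 1, and its lowest value came from leaving out a library of a pool that correlated least with the others of its line.

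**Figure D4:**
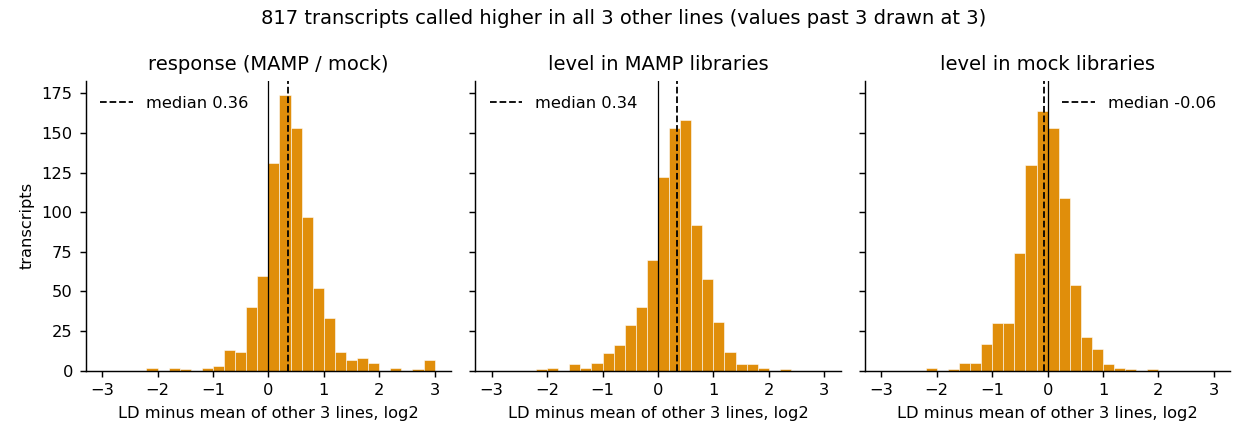
Histograms over 817 transcripts of the LD value minus the mean of the other 3 lines, for the log2 response (left), the log2 level in MAMP libraries (middle) and the log2 level in mock libraries (right), with dashed lines at the medians. The medians are 0.36 and 0.34 in the first panels and −0.06 in the last.

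Few single transcripts could be shown to respond differently in LD. In the test of the LD response minus the mean of the other lines, 6 transcripts were higher (0.0181%) and 0 were lower (0%) by edgeR's adjusted p. At an unadjusted p under 0.05, 724 were higher and 348 lower, and the lowest adjusted p on the lower side was 0.0874. Other tools called more, with 18 higher and 1 lower in DESeq2, and 83 higher and 45 lower in limma. Without LD mock library 1 or LD mock library 3, edgeR called 2. With the replicate block, 5228 were higher and 3973 lower, with the same lack of error as above.

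All 6 were called higher in LD. Glyma17g01520.1 on chromosome 17 had 77.1, 83.8 and 91.5 CPM in LD MAMP libraries and 0.867, 0.965 and 1.04 CPM in LD mock libraries, a log2 fold change of 6.45. MAMP means were 84.2 ± 7.21 CPM in LD, 45.5 ± 0.976 in LDX, 34.1 ± 4.01 in R-11272 and 48.7 ± 7.75 in R-11268, and mock means were 0.956 ± 0.0857 CPM in LD, 0.658 ± 0.0378 in LDX, 1.31 ± 0.136 in R-11272 and 3.54 ± 0.551 in R-11268 (SD, n = 3 each). Its LD response exceeded the mean of the others by 1.59 on the log2 scale (SE 0.18, edgeR adjusted p = 0.00114). The log2 response was 6.1 in LDX, 4.7 in R-11272 and 3.78 in R-11268, and LD minus LDX alone was 0.35 (SE 0.23) and did not pass the test.

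Glyma08g07080.1 on chromosome 8 had 5.92, 7.5 and 7.05 CPM in LD MAMP libraries and 0.0542, 0.107 and 0.0576 CPM in LD mock libraries. Those mock values are 3 counts in all, so the ratio of 102 has a counting interval of 34.7 to 499. The log2 response was 6.51 in LD, 3.31 in LDX, 3.05 in R-11272 and 3.41 in R-11268, and the LD excess was 3.26 (SE 0.36, edgeR adjusted p = 0.00114). That SE follows the spread between pools and does not reflect the width of the counting interval. DESeq2 gave an adjusted p of 0.174 for the LD excess.

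The remaining 4 transcripts were picked out after their values were seen. Glyma06g14090.1 on chromosome 6 had 182, 238 and 284 CPM in LD MAMP libraries and 3.41, 4.61 and 5.36 CPM in LD mock libraries, and its excess was 1.67 (SE 0.23, edgeR adjusted p = 0.00787). LD had the highest MAMP mean and the lowest mock mean of the 4 lines: MAMP means were 234 CPM in LD, 178 in LDX, 153 in R-11272 and 169.6 in R-11268, and mock means were 4.46 CPM in LD, 9.21 in LDX, 7.18 in R-11272 and 15.5 in R-11268. Glyma04g07070.1 on chromosome 4 had 41.1, 48 and 35.7 CPM in LD MAMP libraries and 2.71, 3.22 and 2.36 CPM in LD mock libraries, with an excess of 1.26 (SE 0.17, edgeR adjusted p = 0.00797). Its MAMP mean was 41.6 CPM in LD and 16.3 in LDX, while its mock mean was 2.76 CPM in both. These calls could end when single libraries or pools were left out, although the differences moved little. Leaving out LD mock library 1 ended those of Glyma08g07080.1, Glyma06g14090.1 and Glyma04g07070.1 (adjusted p = 0.0871 each in edgeR). Their differences were then 3.1, 1.51 and 1.26. Such an omission also leaves a MAMP library without the mock library of its pool. Leaving out LD mock library 3 ended those of Glyma08g07080.1 and Glyma04g07070.1 (0.0801 each). Without LD pool 2, LDX pool 3 and R-11272 pool 1, each the pool that correlated least with the others of its own line, the adjusted p was 0.0513 for Glyma17g01520.1 and Glyma04g07070.1 and 0.111 for Glyma06g14090.1.

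The last 2 of the 6 were scarce and were called higher in no other line. Glyma14g02290.1 had a log2 response of 1.42 in LD, 0.0836 in LDX, −0.808 in R-11272 and −1.28 in R-11268, on LD totals of 51.8 counts with MAMP and 20.9 with mock. Glyma11g02050.1 had 1.71 in LD, 0.503 in LDX, −1.09 in R-11272 and −0.216 in R-11268, on LD totals of 125.9 counts with MAMP and 38.0 with mock. Both had an edgeR adjusted p of 0.00983 for the LD excess.

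Set against the other parent alone, the LD response was higher for 4 transcripts (0.012%) and lower for 0 (0%) in edgeR, with 665 higher and 268 lower at an unadjusted p under 0.05. DESeq2 called 8 and limma 85 higher and 39 lower. Of the 4 edgeR calls, DESeq2 kept that of Glyma04g07070.1 (adjusted p = 0.00446) and ended those of Glyma17g05240.1 (0.407), Glyma08g07080.1 (0.560) and Glyma10g37280.1 (0.494). Glyma04g07070.1 and Glyma08g07080.1 were among the 4, which were picked out after their values were seen, with LD minus LDX differences of 1.36 (SE 0.21, edgeR adjusted p = 0.044) and 3.2 (SE 0.41, adjusted p = 0.0328). Glyma17g05240.1 had 6.52 ± 1.65 CPM in LD and 3.96 ± 0.958 CPM in LDX with MAMP, and 0.202 ± 0.0355 CPM in LD and 0.656 ± 0.134 CPM in LDX with mock (SD, n = 3 each), and the responses differed by 2.39 (SE 0.34, edgeR adjusted p = 0.0328). Glyma10g37280.1 had similar means in MAMP libraries, at 1.18 ± 0.159 CPM in LD and 1.11 ± 0.257 CPM in LDX, but had 0 counts in LD mock libraries against 16.0 in LDX mock libraries. Leaving out any 1 of the 12 LD and LDX libraries left 0 to 2 calls, and in a fit of those 12 libraries alone there were 0.

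Some of the risen transcripts lay beside each other on the chromosomes. Neighbours were read from the order of locus numbers in the identifiers, which run along each chromosome. Of 33027 loci tested, 1452 held a risen transcript (4.4%). After a risen locus, the next tested locus had risen in 208 of 1452 cases (14.3%), against 3.94% after a locus that had not. Of 96 fallen loci with a next tested locus, 1 was followed by another fallen one. As 0.292% of all tested transcripts fell, nothing is read from that count. Neighbouring gene copies can share reads, and the sources used here do not say how the authors' step divided such reads, so its part in these counts was not tested. By chromosome the share risen was similar, between 3.55% on chromosome 14 and 5.01% on chromosomes 3 and 18.

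The risen loci formed 153 runs of 2 or more neighbours, which held 361 loci (24.9%). There were 117 runs of 2, 26 of 3, 5 of 4, 2 of 5, 2 of 6 and 1 of 7. The longest run, on chromosome 18 (locus numbers 48900 to 48970), had log2 responses of 1.58 to 2.95 in LD, and 6 of its 7 loci were called higher in LDX, 5 in R-11272 and 6 in R-11268. Its loci ranged widely in level, with MAMP means of 1.09 to 134 CPM and mock means of 0.294 to 25.7 CPM. A run of 6 on chromosome 3 (35920 to 35990) had the strongest responses among runs of 5 or more, of 3.39 to 6.21 on the log2 scale in LD, and all 6 loci were called in each other line. The other runs of 5 or 6 were on chromosomes 11, 9 and 14, with LD responses between 1.72 and 3.83. Of the 6 loci on chromosome 11, 3 were called higher in LDX, 3 in R-11272 and 5 in R-11268. Of the 5 on chromosome 9, 5 were called in LDX, 5 in R-11272 and 4 in R-11268. On chromosome 14 all 5 were called in each other line. Among all transcripts that rose in LD, 71.0% were called higher in LDX, 70.6% in R-11272 and 67.2% in R-11268. Runs were chosen by their LD calls, so the LD values are a description.

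**Figure D5:**
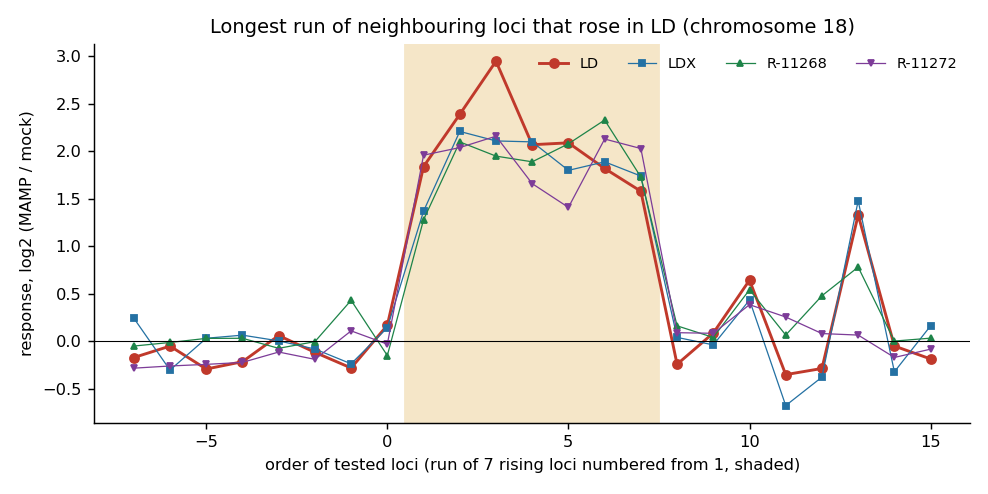
Log2 response (MAMP over mock) in LD, LDX, R-11268 and R-11272 for tested loci in the order of their identifiers, with the run of 7 loci that rose in LD shaded. Inside the run all 4 lines lie above 1, and of the flanking loci drawn only 1 exceeds 1 in LD, at 1.33, without a call.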

How the data were processed

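Whole-leaf RNA of 24 samples was made into TruSeq libraries, per the labels' protocols. The deposited values are estimated counts per transcript. Per the submitters' processing notes, the tools were TopHat 1.4.1, Bowtie 0.12.7 and Cufflinks 1.1.0. The step that made the estimated counts, the genome build, the annotation, strandedness and the handling of multiply mapped reads are, in those sources, not given. Column names ending in P, a letter no label explains, were read as MAMP, and those ending in C as mock.

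Estimated counts, rounded to whole numbers, were fitted by edgeR 4.0.16 (R 4.3.3) after filterByExpr (minimum count 10, minimum total 15), which left 33214 transcripts, and TMM scaling. The quasi-likelihood model had 8 group means over all 24 libraries, without a block, which leaves 16 residual degrees of freedom. Both libraries of a pool enter the spread, so these degrees of freedom overstate the independent ones. Depth was 9780810 to 17541363 estimated counts in LD. Ratio intervals are exact 95% intervals on group totals and cover counting error only. An SE is the absolute log2 fold change or difference, divided by the square root of edgeR's F statistic. It follows the spread between pools, and for scarce transcripts it can lie below counting error. Alternatives used DESeq2 1.42.0 and limma 3.58.1. The code was tested on simulated data in which every library was drawn independently. Those data lack the tie between the MAMP and mock libraries of a pool, so they do not measure false calls here.

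Deviations of same-numbered LD libraries from their group means correlated at 0.99 or more across transcripts, and those of other numbers at 0.181 or less, so the numbers were read as pools. Since the table has the form of fitted values, this cannot be separated from the authors' model.

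The comparison, lists and rules were chosen with earlier results of these data known. Named transcripts were, by rule, calls with separated groups and 100 or more counts ranked by fold, calls ranked by level, and line differences ranked by adjusted p. The rule allowed more of them where names exist, and 2 in each direction per criterion where they do not. Gene lists, leaf markers and promoter motifs were not used, because 0 of 41743 identifiers matched the 59048 genes of the RefSeq table (Glycine_max_v4.0).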

Additional observations from a re-analysis of the deposited data

Results flagged for a closer look

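Differences between lines in the same contrast, each tested as an interaction in edgeR, are gathered here. The LD response differed from the mean of LDX, R-11268 and R-11272 for 6 transcripts, all higher in LD. The 4 with the lowest adjusted p differed on the log2 scale by 1.59 (Glyma17g01520.1), 3.26 (Glyma08g07080.1), 1.67 (Glyma06g14090.1) and 1.26 (Glyma04g07070.1).

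The LD response differed from that of LDX for 4 transcripts, all higher in LD, by 2.39 (Glyma17g05240.1), 3.2 (Glyma08g07080.1), 5.63 (Glyma10g37280.1) and 1.36 (Glyma04g07070.1) on the log2 scale. The value of 5.63 rests on 0 counts in LD mock libraries and 16.0 in LDX mock libraries, and depends on how 0 counts are handled. Groups of 3 libraries are too small for the test of single outlying samples.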

How the results depend on the processing

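The 1551 calls of the LD response came to 998 among transcripts with a mean of 100 counts or more, 2493 without LD pool 2, LDX pool 3 and R-11272 pool 1 (each the least correlated pool within its line, at a mean r of 0.955, 0.855 and 0.871; R-11268, at 0.984, lost none), and 14032 when group totals were set against counting error alone. Leaving out 1 LD library gave 1163 to 1357. Total calls stayed within 1.5 times under other scaling, no filter, unrounded values and sums per locus. They also did in the 6 LD libraries alone (1992), limma-voom (2018) and DESeq2 (1673), and without LD pool 2 (1052). Falls alone moved more in these settings, from 20 without LD pool 2 to 293 in limma-voom. Without LD pool 2, 1025 of the 1454 rises and 19 of the 97 falls were called again; in DESeq2 the counts were 1380 and 62. The 6 calls of LD against the mean of the other lines came to 22 with library totals alone, 13 with no filter, 3 at a mean of 100 or more, 128 in limma and 19 in DESeq2; leaving out 1 library gave 2 to 9. The 4 calls against LDX came to 2 with DESeq2 size factors, library totals or unrounded values, 7 with no filter, 124 in limma, 8 in DESeq2, and 0 at a mean of 100 or more, in the 12 libraries alone, without the 3 pools and without LD pool 2; leaving out 1 library gave 0 to 2. The share of the 817 transcripts with the largest response in LD, 60.5%, became 55.4% with library totals, 68.3% at a mean of 100 or more, 56.2% in DESeq2 and 51.0% without the 3 pools, and 46.3% to 63.0% on leaving out 1 library. The cause was not tested. The scaling by totals and both omissions of pools were chosen after seeing the data. For 16 named results, 258 of 356 alternatives kept the call, 98 ended it and 0 reversed it. The block and the test on counting error alone are left out there, as they keep every call by construction. Calls ended most often for LD minus LDX. With the block counted, that was in 14 of 23 alternatives for Glyma17g05240.1 and for Glyma08g07080.1. It was in 19 of 23 for Glyma10g37280.1 and 19 of 24 for Glyma04g07070.1. Scarce transcripts limit the falls: 86 of 97 had under 10 CPM.

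With the replicate number as a block, calls were 14644 for the LD response, 9201 for LD against the other lines and 8682 for LD against LDX. The pairing leaves almost no scatter in the MAMP effect, because the table holds the same ratio in every replicate, so this fit has no usable error.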
